A study of Mus musculus with 12 samples.

Results

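The genes described here belong to antigen presentation by major histocompatibility complex (MHC) class II. They are H2-Aa, H2-Ab1, H2-Eb1, H2-DMa, H2-DMb1, Cd74, Ciita and, as a marker of Langerhans cells, Cd207. They were chosen by name and matched by symbol, and all 8 were found among the 55401 genes of the deposited table. RNA was sequenced from the dermis, which lies under the epidermis, of C57BL/6 mice aged 6 weeks. The study made pairs of equally large wounds. Day 0 samples are described as unwounded dermis and day 7 samples as the wound on day 7. Wild-type (WT) mice were compared with mice labelled Cthrc1-/-, which lack a secreted collagen triple helix repeat protein. Samples from day 0 and day 7 of either genotype gave 4 groups with 3 biological replicates each. How the null allele was made and whether a sample pooled several animals were not given in the sources used here.

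MHC class II molecules are pairs of an alpha and a beta chain that display peptides from taken-up protein to CD4+ T cells. They are made mainly by dendritic cells, Langerhans cells, macrophages and B cells, and interferon-gamma can switch them on in other cells. The invariant chain Cd74 escorts new class II pairs to the endosome, proteases such as cathepsin S trim it, and the H2-DM pair exchanges its last fragment for peptide. Ciita is the coactivator that docks on factors bound at class II promoters and is the master switch of these genes. Cd207 encodes langerin, a lectin of Langerhans cells in the epidermis and of a subset of dermal dendritic cells.

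Total counts ranged from 48329668 to 76938132 per library. Cthrc1 had at most 15 counts in each library labelled Cthrc1-/- and at least 1813 in each WT library, as the genotype labels require. The tissue label was checked against markers, by the summed level of each list in FPKM (read fragments per kilobase of gene length, relative to library depth). The 6 dermal fibroblast markers summed to between 337.2 and 6441 FPKM, and the 7 epidermal keratinocyte markers to between 2305 and 9514 FPKM, so that the libraries held epidermal RNA as well. Cthrc1-/- day 0 replicate 3 stood apart, with the lowest fibroblast sum and the highest sum of hair follicle markers, at 11306 FPKM. WT day 7 replicate 1 stood apart as well, with the highest sum of neutrophil markers, at 5065 FPKM against 39.1 to 1158 FPKM in the other day 7 libraries, and the lowest keratinocyte sum. Results that rest on these 2 libraries are given with and without them.

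Class II promoters are known for a conserved pair of elements, an X box and a Y box, and the Y box is an inverted CCAAT motif. The pair is shown here because it is the stretch through which Ciita is known to act. A search for GNAAC followed by GATTGG after 20 to 30 letters, on both strands, used RefSeq promoter windows of 300 bases (250 before to 50 after the start, GRCm38.p6). The spacing was chosen after these promoters had been seen. Windows were found for 5 of the 8 genes, and not for H2-Ab1, Cd74 and Ciita. The pair was present in 3 of the 5, H2-Aa, H2-Eb1 and H2-DMb1, and not in the windows of H2-DMa and Cd207. Of all 32851 windows, 214 or 0.651% held it. GATTGG alone was in 16.1% of windows and GNAAC alone in 84.8%. Among the other class II chains with a window it was present in 3 of 4, H2-Eb2, H2-Oa and H2-Ob, and not in H2-DMb2. Capitals mark the 2 searched motifs, and each line reads in the direction of the gene.
H2-Aa: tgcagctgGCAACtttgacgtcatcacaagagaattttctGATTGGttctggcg
H2-Eb1: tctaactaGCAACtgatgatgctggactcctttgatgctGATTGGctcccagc
H2-Eb2: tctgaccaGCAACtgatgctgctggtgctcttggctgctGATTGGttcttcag
H2-Ob: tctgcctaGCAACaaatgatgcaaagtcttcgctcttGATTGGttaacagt
These stretches lie at chr17:34287859-34287912 (minus strand), chr17:34305768-34305820, chr17:34325535-34325587 and chr17:34238810-34238860 (plus strand). The searched motifs are 27, 26, 26 and 24 bases apart in this order. In H2-DMb1 they are 27 bases apart.

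The 5 H2 genes lie within 197 kb of one another on chromosome 17, from 34119541 to 34316674 on GRCm38 by GENCODE M21, and each is annotated as protein-coding. H2-Aa (ENSMUSG00000036594) spans 34282744 to 34287823 on the minus strand, and the other 4 lie on the plus strand. These are H2-Ab1 (ENSMUSG00000073421), from 34257689 to 34269419, H2-Eb1 (ENSMUSG00000060586), from 34305867 to 34316674, H2-DMa (ENSMUSG00000037649), from 34119541 to 34139101, and H2-DMb1 (ENSMUSG00000079547), from 34153072 to 34160230. The others are unlinked to this cluster: Cd74 (ENSMUSG00000024610) on chromosome 18 from 60803848 to 60812652, Ciita (ENSMUSG00000022504) on chromosome 16 from 10480059 to 10528418, and Cd207 (ENSMUSG00000034783) on chromosome 6 from 83671215 to 83677857. Some counts are uncertain. The H2-DMb1 transcript matched H2-DMb2 at 95.7% identity over 1081 of its 1404 bases, so that reads may be divided between them. Ciita overlaps Dexi, H2-Eb1 overlaps Gm20513 and H2-DMa overlaps Brd2 on the opposite strand, and whether counting used the strand was not given in the sources used here.

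Per length, the invariant chain was the most abundant of the 8, and most of the order held in every library. Over the 12 samples Cd74 averaged 281.1 FPKM, H2-Ab1 107.5 FPKM, H2-Eb1 81.0 FPKM and H2-Aa 77.2 FPKM. H2-DMb1 averaged 17.8 FPKM, Cd207 14.2 FPKM, H2-DMa 8.34 FPKM and Ciita 0.369 FPKM. Cd74 was above H2-Ab1, H2-Ab1 above H2-Eb1, H2-Aa above H2-DMb1 and H2-DMa above Ciita in 12 of 12 samples. The order changed with the day for 2 pairs of neighbours, H2-Eb1 and H2-Aa, with the former higher in 7 of 12, and H2-DMb1 and Cd207, also 7 of 12. H2-Eb1 was above H2-Aa in every day 0 library and on day 7 only in WT replicate 3. H2-DMb1 was above Cd207 in every day 7 library and on day 0 only in Cthrc1-/- replicate 3. Cd207 was above H2-DMa in 10 of 12. The other class II chains were scarce: H2-DMb2 averaged 3.20 FPKM, H2-Oa 0.763 FPKM, H2-Ob 0.270 FPKM and H2-Eb2 0.101 FPKM. H2-Ea-ps, the alpha chain partner of H2-Eb1 that C57BL/6 mice are known not to express, did not exceed 0.135 FPKM. The 7 B cell markers together summed to between 0.936 and 3.75 FPKM, with Ms4a1 at most at 0.0154 FPKM and Pax5 at most at 0.0286 FPKM.

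The first question was whether dermis without Cthrc1 differed in class II expression on day 0. In WT day 0 the 3 libraries lay close together. In Cthrc1-/- day 0 they did not: replicate 1 was above every WT day 0 library for all of the genes but H2-Ab1 and H2-DMa, and replicate 3 was the lowest of all 12 libraries for 7 of the 8.

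Among the peptide-binding chains, H2-Aa was at 87.6, 75.0 and 89.2 FPKM in WT day 0 and at 101.7, 61.2 and 22.3 FPKM in Cthrc1-/- day 0. H2-Ab1, its beta partner, was at 119.6, 122.7 and 152.6 FPKM in WT and at 150.9, 86.1 and 37.1 FPKM in Cthrc1-/-. H2-Eb1 was at 97.5, 98.0 and 102.0 FPKM in WT and at 123.7, 63.2 and 22.9 FPKM in Cthrc1-/-. In each case the groups overlapped, and the spread within Cthrc1-/- exceeded the difference between the means. Cd74 showed the same pattern, at 328.7, 362.4 and 357.7 FPKM in WT and at 401.5, 237.4 and 83.1 FPKM in Cthrc1-/-.

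The H2-DM chains, which load peptide, varied less. H2-DMa was at 8.04, 10.6 and 10.3 FPKM in WT day 0 and at 10.4, 7.32 and 3.45 FPKM in Cthrc1-/- day 0. H2-DMb1 was at 20.4, 19.9 and 19.8 FPKM in WT and at 26.2, 16.1 and 9.45 FPKM in Cthrc1-/-. Both were again lowest in replicate 3. Cd207 was at 20.7, 23.0 and 24.8 FPKM in WT and at 35.8, 16.3 and 2.92 FPKM in Cthrc1-/-, the widest range as a fold among the genes other than Ciita. Ciita was at 0.214, 0.284 and 0.162 FPKM in WT and at 0.487, 0.375 and 0.00916 FPKM in Cthrc1-/-, the last from 5 counts.

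**Figure D1:**
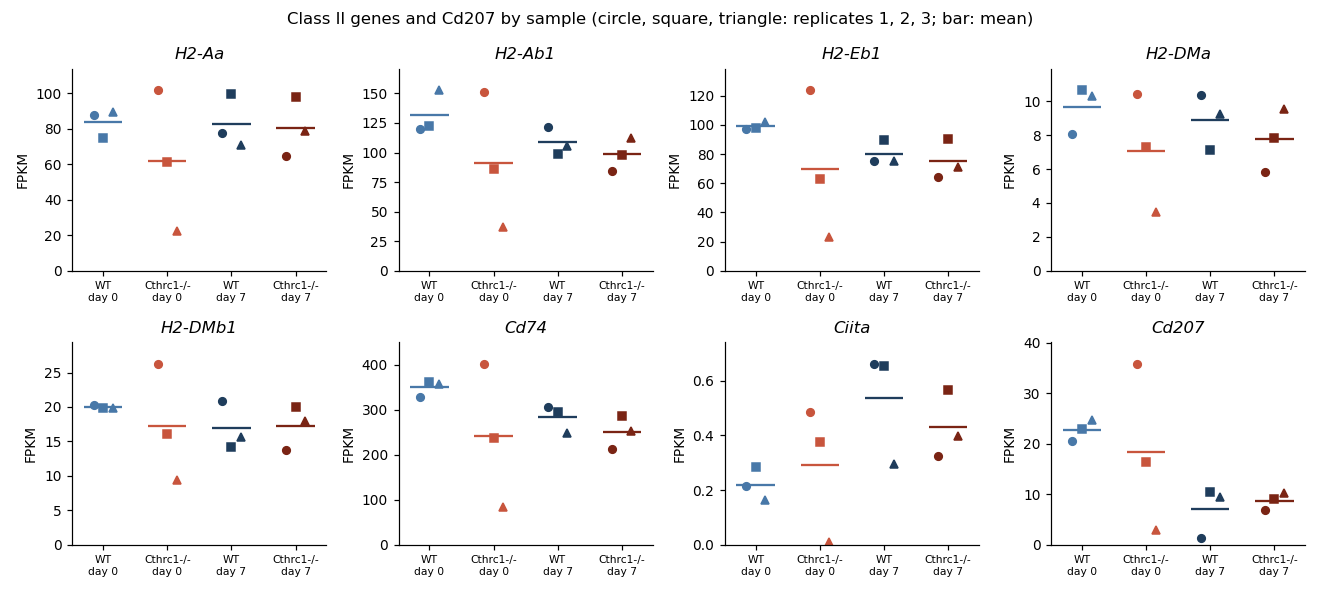
FPKM of each of the 8 genes (y axis, from 0) in the 4 groups (x axis), with 1 point per sample (circle, square and triangle for replicates 1, 2 and 3) and a bar at the group mean. Cthrc1-/- day 0 spans the widest range for every gene, and Cd207 is lower in all WT day 7 libraries than in all WT day 0 libraries.

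Of the 7 genes tested, 0 were called different between genotypes on day 0 (edgeR quasi-likelihood test over 14313 genes, adjusted p under 0.05), where 5.78% of all genes tested were called. None of the 7 had an unadjusted p under 0.05 with edgeR, DESeq2 or limma. With edgeR 4068 of all 14313 genes had one. The log2 difference, Cthrc1-/- against WT, was between -0.61 (Cd74) and -0.30 (H2-DMb1) for the 6 class II genes, and -0.37 for Cd207. For Cd74 the 95% interval ran from -1.61 to 0.39. Ciita averaged under 1 FPKM and was tested only in a fit with a lower minimum (mean count of at least 10), where its log2 difference was 0.37 with an edgeR adjusted p of 0.834. Ranges of FPKM did not overlap between genotypes for 0 of the 8 genes, against 21.5% of tested genes higher and 19.8% lower in Cthrc1-/-. Without the 2 libraries that stood apart the log2 difference was between -0.17 (H2-Ab1) and 0.06 (H2-DMb1) for the class II genes and 0.17 for Cd207. Without Cthrc1-/- day 0 replicate 1, the highest library of that group, it was between -1.31 (H2-Eb1, edgeR adjusted p 0.0513) and -0.77 (H2-DMb1) for the class II genes, and none was called.

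Marker levels moved with this comparison. The fibroblast sum was 4814 to 6441 FPKM in WT day 0 and 337.2 to 2386 FPKM in Cthrc1-/- day 0, and Col1a2, a collagen chain of fibroblasts, was called lower in Cthrc1-/- by edgeR. The 10 macrophage markers summed to 227.8 to 242.9 FPKM in WT and 83.2 to 171.4 FPKM in Cthrc1-/-, with 10 of 10 lower (median log2 difference -0.93) and Mertk, a receptor for dying cells, called. The pan-leukocyte sum was 106.6 to 130.5 FPKM and 33.3 to 102.8 FPKM. Hair follicle markers summed to 2.59 to 4.87 FPKM in WT and to 215.9 to 11306 FPKM in Cthrc1-/-, and 6 of the 6 tested were called higher. Their part in the class II values was not tested. In bulk tissue, fewer cells of a type and less RNA per cell cannot be told apart.

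On day 7 the genotypes were closer. Cd74 was at 306.7, 294.4 and 249.2 FPKM in WT and at 212.9, 285.9 and 253.3 FPKM in Cthrc1-/-. H2-Aa was at 77.7, 99.4 and 71.0 FPKM in WT and at 64.6, 97.9 and 79.0 FPKM in Cthrc1-/-. The groups overlapped for both. H2-Ab1 was at 121.8, 98.5 and 105.2 FPKM in WT and at 84.4, 98.3 and 112.3 FPKM in Cthrc1-/-, and H2-Eb1 at 74.9, 89.3 and 75.2 FPKM and at 64.1, 90.6 and 70.9 FPKM. The peptide-loading chains did not separate either. H2-DMa was at 10.3, 7.10 and 9.23 FPKM in WT and at 5.84, 7.84 and 9.55 FPKM in Cthrc1-/-, and H2-DMb1 at 20.8, 14.2 and 15.6 FPKM and at 13.7, 19.9 and 18.0 FPKM. Ciita was at 0.661, 0.653 and 0.295 FPKM in WT and at 0.326, 0.568 and 0.399 FPKM in Cthrc1-/-, so that the WT range enclosed the other.

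Of the 7 genes 0 were called on day 7, where 0.021% of all genes tested were called, and none had an unadjusted p under 0.05 by edgeR, DESeq2 or limma. The log2 difference was between -0.29 (H2-DMa) and -0.07 (H2-DMb1) for the class II genes, 0.28 for Cd207 and -0.42 for Ciita. Ranges overlapped for 8 of 8 genes, while they did not overlap for 6.46% of tested genes that were higher and 2.67% that were lower in Cthrc1-/-. The intervals of the class II differences reached from -1.26 (Cd74) to 0.88 (H2-Eb1), which leaves room for a difference of either sign.

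The next question was what differed between day 0 and day 7. In WT the largest difference was in Cd207. It went from 20.7, 23.0 and 24.8 FPKM on day 0 to 1.35, 10.4 and 9.55 FPKM on day 7, a mean of 22.8 ± 2.08 against 7.09 ± 4.99 FPKM (SD, n = 3 each). Each day 7 library was below each day 0 library. In Cthrc1-/- it went from 35.8, 16.3 and 2.92 FPKM to 6.96, 8.96 and 10.3 FPKM, where replicate 3 of day 0 lay below all day 7 libraries. The class II genes differed less, with means in WT of 349.6 ± 18.3 against 283.4 ± 30.3 FPKM for Cd74, 99.2 ± 2.49 against 79.8 ± 8.23 FPKM for H2-Eb1 and 83.9 ± 7.80 against 82.7 ± 14.9 FPKM for H2-Aa (SD, n = 3 each).

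In WT, 0 of the 7 tested genes were called between days, where 13.1% of all genes tested were called. Cd207 had a log2 difference of -1.93 (SE 0.822, 95% interval -3.75 to -0.10), with an unadjusted p of 0.0407 and an edgeR adjusted p of 0.135. It was the only gene of the 7 with an unadjusted p under 0.05, with edgeR and likewise with DESeq2 (adjusted p 0.0540) and limma (adjusted p 0.119). Of all 14313 genes, 4658 had an unadjusted p under 0.05 there with edgeR. The class II genes had log2 differences between -0.50 (H2-Eb1) and -0.21 (H2-Aa). Ranges did not overlap for H2-Eb1, Cd74 and Cd207, lower on day 7 as 14.1% of tested genes were, and for Ciita, higher on day 7 as 29.8% of tested genes were. Ciita itself is not among those tested genes, and its log2 difference was 1.14 with an edgeR adjusted p of 0.442. In a fit of the WT samples alone, H2-Eb1 was called (log2 difference -0.50, edgeR adjusted p 0.0425), where 14.7% of all genes tested were called.

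In Cthrc1-/-, 0 of the 7 were called between days, where 1.46% of all genes tested were called, and none had an unadjusted p under 0.05 with edgeR, DESeq2 or limma. Cd207 had a log2 difference of -1.27 (SE 0.806, edgeR adjusted p 0.440). The class II genes had log2 differences between -0.18 (H2-DMb1) and 0.19 (H2-Aa), and Ciita one of 0.35. Scaling by total counts turned each of the negative class II values positive, up to 0.15 (H2-DMa). Ranges did not overlap for 0 of the 8 genes, against 4.99% of tested genes lower and 21.5% higher on day 7. The test for a genotype effect on the change between days called 0 of the 7 genes, where 0.014% of all genes tested were called. That difference was 0.65 for Cd207 on the log2 scale (edgeR adjusted p 0.802) and between 0.23 (H2-DMb1) and 0.41 (H2-Eb1) for the class II genes.

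Without Cthrc1-/- day 0 replicate 3 and WT day 7 replicate 1, Cd207 was called lower on day 7 in both genotypes. The log2 difference was then -1.41 in WT (edgeR adjusted p 0.0204), where 19.2% of all genes tested were called, and -1.79 in Cthrc1-/- (edgeR adjusted p 0.0115), where 11.5% were. This setting was chosen after the values had been seen, and it was the only one of those tried under which Cd207 was called. No class II gene was called under it. Leaving out only WT day 7 replicate 1 gave Cd207 a log2 difference of -1.34 in WT with an edgeR adjusted p of 0.282, and leaving out only Cthrc1-/- day 0 replicate 3 gave -1.79 in Cthrc1-/- with an edgeR adjusted p of 0.148.

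**Figure D2:**
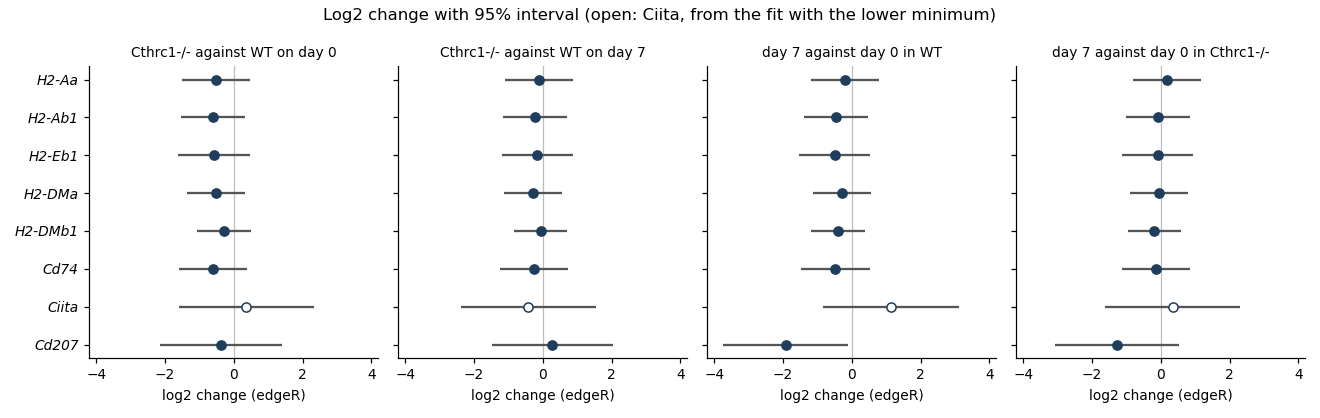
Log2 difference of each gene (x axis) with its 95% interval from edgeR, in 4 panels for the comparisons of genotypes and of days. Filled points are the 7 genes above the FPKM minimum, the open point is Ciita from the fit with the lower minimum, and of all the intervals only that of Cd207 in WT between days lies wholly to 1 side of 0.

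The genes were also compared as ratios within a sample, which cancels a shared change in the amount of class II RNA. Over the 12 samples the SD of log2 Cd74 was 0.59, while that of the log2 ratio of Cd74 to H2-Aa was 0.21. For H2-Eb1 the SD was 0.62 alone and 0.17 as a ratio to H2-Aa, and for H2-Ab1 0.53 and 0.26. Most of this contrast rests on Cthrc1-/- day 0 replicate 3. Without it the SD was 0.29 alone and 0.22 as a ratio for Cd74, 0.31 and 0.18 for H2-Eb1, and 0.29 and 0.26 for H2-Ab1, so that for H2-Ab1 the ratio varied nearly as much as the level. For Cd207 the SD over the 12 samples was 1.35 alone and 1.18 as a ratio to H2-Aa, and without that library 1.27 and 1.23. The 9 ratios were chosen after the values had been seen. Each was tested between days with a two-sided exact permutation test that exchanged days within a genotype (400 assignments, for which 0.005 is the smallest p), adjusted over the 9.

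Relative to H2-Aa, Cd207 was lower on day 7 in both genotypes. The ratio was 0.236, 0.306 and 0.278 in WT day 0, 0.352, 0.267 and 0.131 in Cthrc1-/- day 0, 0.0173, 0.104 and 0.135 in WT day 7, and 0.108, 0.0915 and 0.130 in Cthrc1-/- day 7. Within each genotype the days did not overlap, by a narrow margin in Cthrc1-/-, where day 0 replicate 3 lay just above day 7 replicate 3. Averaged over genotypes, the ratio was 3.04-fold lower on day 7 (log2 -1.60, exact permutation p 0.005, adjusted p 0.015). Without both libraries that stood apart it was 2.54-fold lower (exact permutation p 0.010). The ratio of Cd207 to Cd74 was lower on day 7 by a log2 difference of -1.32 (exact permutation p 0.010, adjusted p 0.018), and without WT day 7 replicate 1 by one of -0.81 (exact permutation p 0.010). For this ratio the days overlapped in Cthrc1-/-, where day 0 replicate 3 was at 0.0351 and day 7 ranged from 0.0314 to 0.0406.

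Smaller shifts were seen among the class II genes. H2-Eb1 relative to H2-Aa averaged 1.19 ± 0.105 in WT day 0 and 1.09 ± 0.108 in Cthrc1-/- day 0, and 0.974 ± 0.0810 and 0.938 ± 0.0484 on day 7 (SD, n = 3 each). It was 1.19-fold lower on day 7 (exact permutation p 0.005, adjusted p 0.015), and Cd74 relative to H2-Aa was 1.22-fold lower (exact permutation p 0.010, adjusted p 0.018). Both ratios share the denominator H2-Aa. On the log2 scale they differed by -0.25 and -0.29, and those of H2-Ab1 and H2-DMa to H2-Aa by -0.27 and -0.23. A shift of H2-Aa and separate shifts of the other genes cannot be told apart from these ratios. The ratios of H2-Ab1 (adjusted p 0.096 by the exact permutation test) and H2-DMa (0.285) to H2-Aa and of H2-DMb1 to H2-DMa (0.27) did not pass. Ciita relative to H2-Aa was 2.35-fold higher on day 7 (exact permutation p 0.050, adjusted p 0.075) and did not pass. Without Cthrc1-/- day 0 replicate 3, where Ciita had 5 counts, it was 1.53-fold higher (exact permutation p 0.10). Ctss, the cathepsin that trims Cd74, was 2.83-fold higher relative to H2-Aa on day 7 (exact permutation p 0.005, adjusted p 0.015). Without WT day 7 replicate 1 it was 2.24-fold higher (exact permutation p 0.005). Ctss itself was at 53.8, 43.5 and 43.9 FPKM in WT day 0 and at 335.7, 113.1 and 70.2 FPKM in WT day 7. In Cthrc1-/- it was at 42.2, 28.4 and 11.4 FPKM on day 0 and at 86.1, 108.7 and 97.1 FPKM on day 7.

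**Figure D3:**
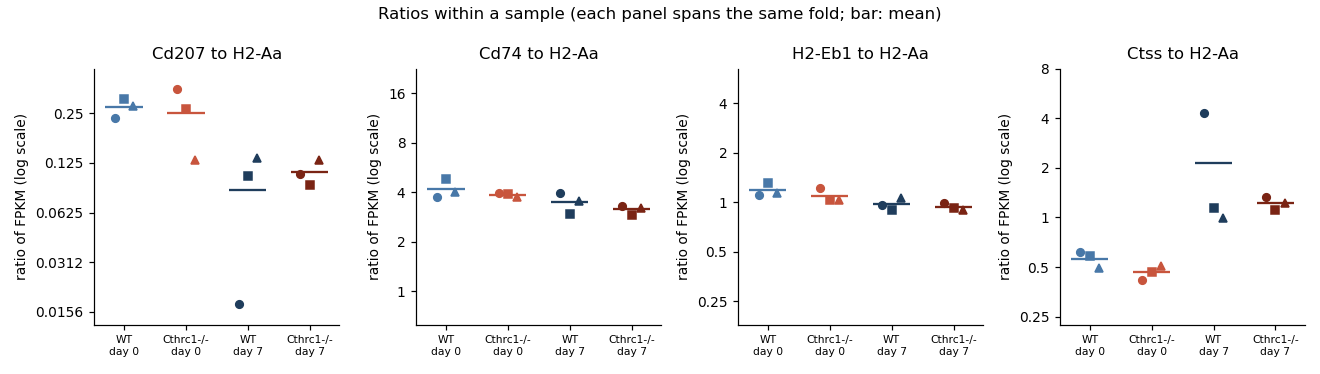
Ratio of FPKM values within each sample (y axis, log scale; every panel spans the same fold) for Cd207, Cd74, H2-Eb1 and Ctss over H2-Aa, in the 4 groups (x axis), with 1 point per replicate and a bar at the mean. The ratio of Cd207 does not exceed 0.135 in any day 7 library, and that of Ctss is at least 0.990 in each of them and at most 0.615 in each day 0 library.

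The levels of cell markers beside Cd207 did not move as 1 group. The 5 Langerhans cell markers, Cd207 among them, summed to 164.7 to 171.6 FPKM in WT day 0 and 102.3 to 160.2 FPKM in WT day 7, and to 171.2 to 273.5 and 162.7 to 193.8 FPKM in Cthrc1-/-. Much of this sum is Epcam and Cd24a, which keratinocytes and hair follicles express too. Of the 5, Runx3, a transcription factor of Langerhans cells and of T cells, was called higher on day 7 in WT (log2 difference 1.73, edgeR adjusted p 0.0307). The call was kept in 1 of 6 fits that left out a WT library, which called 527 to 2043 genes in all against 1880. In WT 4 of the 5 had an unadjusted p under 0.05 with edgeR, where 4658 of all 14313 genes had one. Without the 2 libraries that stood apart, edgeR called Mfge8, another of the 5, higher on day 7 in WT, and Runx3 was not called. Epcam was called lower on day 7 in Cthrc1-/- by that fit and by DESeq2 with all samples. WT day 7 replicate 1, lowest in Cd207 at 1.35 FPKM, was the lowest of the 12 in Krt10, a keratin of upper epidermis, at 86.7 FPKM against 175.0 FPKM or more elsewhere. Its H2-Aa, at 77.7 FPKM, lay within the range of the other day 7 libraries. In the other WT day 7 libraries Krt10 was at 975.7 and 2417 FPKM and Cd207 at 10.4 and 9.55 FPKM, below the WT day 0 libraries, where Krt10 was at 1417 to 1665 FPKM. The sum of the 7 keratinocyte markers was the highest of the 12 libraries in WT day 7 replicate 3, at 9514 FPKM, where Cd207 was at 9.55 FPKM. Most single markers were nonetheless lower on day 7 in WT. In WT 6 of the 7 had a lower level on day 7 (median log2 difference -0.71), 3 with an unadjusted p under 0.05 and 0 called by edgeR. Krt5, a keratin of basal epidermis, was at 3388 to 3826 FPKM on day 0 and 906.7 to 2821 FPKM on day 7. Il34, the keratinocyte cytokine on which Langerhans cells depend, was at 16.8 to 21.9 FPKM on day 0 and 4.66 to 9.33 FPKM on day 7. Neither overlapped between days in WT, and DESeq2 called both lower, as did edgeR without the 2 libraries that stood apart. In Cthrc1-/- 2 of the 7 were lower on day 7, with a median log2 difference of 0.06. Without the 2 libraries that stood apart, edgeR called Krt1, Dsp and Krt5 there, 1 higher and 2 lower. The part of epidermal content in the Cd207 values was not tested.

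Among 12 markers of conventional dendritic cells, the summed level was 53.1 to 55.3 FPKM in WT day 0, 39.5 to 62.9 FPKM in Cthrc1-/- day 0, 58.6 to 91.5 FPKM in WT day 7 and 56.6 to 63.6 FPKM in Cthrc1-/- day 7. Of the 7 tested, 1 was called between days in WT, where 13.1% of all genes were: Fscn1, an actin-bundling protein of mature dendritic cells that other cells make as well, was higher on day 7 (log2 difference 1.48, edgeR adjusted p 0.00964), and it was called in 6 of 6 fits that left out a WT library. Mgl2, a lectin of dermal dendritic cells and macrophages, was at 15.1 ± 1.98 FPKM in WT day 0 and 6.56 ± 3.07 FPKM in WT day 7, and at 8.95 ± 6.06 and 3.66 ± 1.16 FPKM in Cthrc1-/- (SD, n = 3 each). It was named after its values had been seen, and its edgeR adjusted p between days was 0.105 in WT and 0.191 in Cthrc1-/-. Without the 2 libraries that stood apart, Mgl2 and Cd209a, a lectin of monocyte-derived and dermal dendritic cells, were called lower on day 7 in both genotypes, as Cd207 was. In WT the same fit called Fscn1 and Ccr7, the receptor that guides dendritic cells to lymph nodes, higher, so that the list did not move 1 way. With all 12 samples DESeq2 also called Fscn1, Cd209a, Ccr7 and Mgl2 between days in WT, 2 higher and 2 lower. With limma Fscn1 and Ccr7 were called higher there. The 10 macrophage markers summed to 227.8 to 242.9 FPKM in WT day 0 and 249.8 to 835.9 FPKM in WT day 7, and to 83.2 to 171.4 and 343.7 to 444.9 FPKM in Cthrc1-/-. None of the 10 was called between days in either genotype with edgeR, and 7 of 10 had an unadjusted p under 0.05 in each. Of all 14313 genes, 4658 had one in WT and 2596 in Cthrc1-/-. DESeq2 called 3 of the 10 in WT and 5 in Cthrc1-/-, each higher on day 7, against 3551 and 1409 of all genes. Without the 2 libraries that stood apart edgeR called 4 in Cthrc1-/- (Fcgr1, C1qa, C1qb and C1qc) and 0 in WT, where 2 of 10 then had an unadjusted p under 0.05. The 6 neutrophil markers summed to at most 88.5 FPKM in the day 0 libraries and at least 39.1 FPKM in those of day 7. Hair follicle markers separated the days in WT as well, at 2.59 to 4.87 FPKM on day 0 and 1628 to 3794 FPKM on day 7. All 6 tested were called higher there (median log2 difference 9.94). In Cthrc1-/- they summed to 215.9 to 11306 FPKM on day 0 and 476.8 to 5107 FPKM on day 7, and 0 were called. The part of these cell types in the day 7 values of the class II pathway was not tested.

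**Figure D4:**
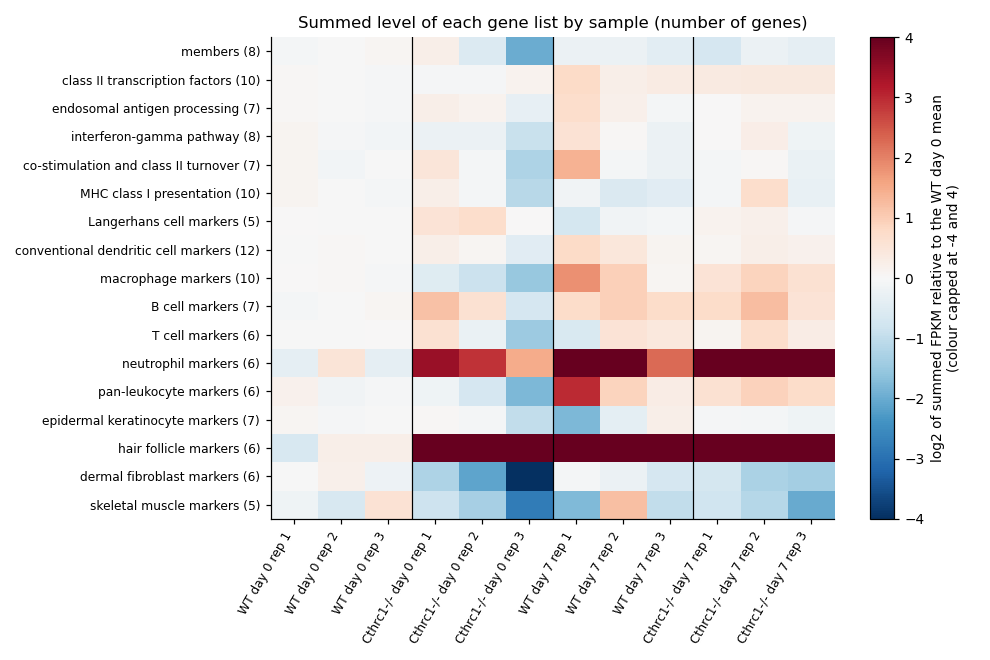
Summed FPKM of each gene list (rows, number of genes in brackets) in each of the 12 samples (columns) as log2 relative to the WT day 0 mean, with colour limited at -4 and 4. The sum of the 8 genes described here, Cd207 and Ciita among them, is 181.3 FPKM in Cthrc1-/- day 0 replicate 3 and 452.8 to 850.8 FPKM in the other libraries. Macrophage and pan-leukocyte markers are above the WT day 0 mean in all day 7 libraries, and the neutrophil and hair follicle rows reach the colour limit.

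The rest of the class II pathway was described from lists that had been chosen with earlier results of these data known. Of 10 transcription factors of class II genes, which include the Rfx and Nfy subunits that bind the X and Y boxes, 0 were called in any of the 5 contrasts with edgeR. Their median log2 difference between days was 0.02 in WT and 0.02 in Cthrc1-/-, where the median of all genes tested was -0.0019 and -0.01, and that of H2-Aa, H2-Ab1, H2-Eb1, H2-DMa, H2-DMb1, Cd74 and Cd207 was -0.46 and -0.09. At an unadjusted p under 0.05 there was 1 of the 10 in WT and 2 in Cthrc1-/-, and at most 2 in the other contrasts. Of all 14313 genes, 4658 had one in WT and 2596 in Cthrc1-/-, and 782 to 4068 in the other contrasts. DESeq2 called Spi1, a myeloid factor, higher on day 7 in WT, and Nfya, a Y box subunit, and Irf8, a dendritic cell factor, in Cthrc1-/-. It also called Rfxap, a subunit of the X box complex, lower in Cthrc1-/- on day 0. Without the 2 libraries that stood apart edgeR called Nfya and Irf8 higher on day 7 in Cthrc1-/-.

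Among 7 genes of endosomal processing there were 2 calls of a higher and 1 of a lower level on day 7 in WT, where 13.1% of all genes were called, with a median log2 difference of 0.69. Fits that left out 1 WT library called between 527 and 2043 genes in all, against 1880 with all samples. A lost call therefore does not by itself mark a gene as resting on 1 library. Lgmn, an asparagine endopeptidase, was at 34.6 ± 4.72 FPKM on day 0 and 126.8 ± 88.1 FPKM on day 7 (SD, n = 3 each), a log2 difference of 1.75 with an edgeR adjusted p of 0.0386. Its call was kept in 1 of 6 fits that left out a WT library, and without WT day 7 replicate 1, at 224.7 FPKM the highest, the log2 difference was 1.03 (edgeR adjusted p 0.0589). Ctsb, the cysteine protease cathepsin B, rose by 0.78 on the log2 scale (edgeR adjusted p 0.0353) and was called in 2 of 6 such fits. Cst3, the secreted cathepsin inhibitor cystatin C, averaged 551.8 ± 7.53 FPKM on day 0 and 300.3 ± 34.0 FPKM on day 7 (SD, n = 3 each), with a log2 difference of -1.07 (edgeR adjusted p 0.0400). That call was lost in each of the 6 fits, with edgeR adjusted p from 0.0695 to 0.106. The log2 difference of Cst3 stayed between -1.08 and -0.94 in them. In Cthrc1-/- none of the 7 was called with edgeR or DESeq2 and 3 had an unadjusted p under 0.05. There 2596 of all 14313 genes had one with edgeR. Without the 2 libraries that stood apart, edgeR called Lgmn and Ctsb higher and Cst3 lower on day 7 in WT. In Cthrc1-/- it called Lgmn and Ctss higher and Ctsd lower on day 7. On day 0, Ctsd was at 259.0, 259.2 and 233.1 FPKM in WT and at 395.9, 501.3 and 385.7 FPKM in Cthrc1-/-. DESeq2 and limma on log2(FPKM + 1) called it higher in Cthrc1-/- there, where they called 2787 and 601 of all 14313 genes. So did edgeR without the 2 libraries, but not with all samples.

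In the interferon-gamma pathway Ifng itself was at most at 0.979 FPKM, and 1 of 7 tested genes was called between days in WT, a share near the 13.1% of all genes. This was Ifngr2, the signalling chain of the receptor, at 8.61 ± 0.444 FPKM on day 0 and 16.96 ± 3.51 FPKM on day 7 (SD, n = 3 each), with an edgeR adjusted p of 0.0195 and a call in 3 of 6 fits that left out a WT library. Of 5 tested genes of co-stimulation and class II turnover, Cd80, a ligand of CD28 on T cells, was called higher on day 7 in WT. Its log2 difference was 3.14 (edgeR adjusted p 0.0464), but 1 library carried it: WT day 7 was at 7.45, 0.938 and 0.470 FPKM, and without replicate 1 the log2 difference was 1.01 (edgeR adjusted p 0.119). In MHC class I presentation, which displays peptides of the cell's own proteins, 0 of 10 genes were called in any of the 5 contrasts with edgeR. At an unadjusted p under 0.05 there were 2 in WT and 0 in Cthrc1-/- between days and at most 2 in the other contrasts. Between days 4658 of all 14313 genes had one in WT and 2596 in Cthrc1-/-. DESeq2 called Tap2, a peptide transporter subunit, lower on day 7 in WT, as did edgeR without the 2 libraries that stood apart. In that fit 7 of the 10 had an unadjusted p under 0.05 between genotypes on day 7, against 889 of all 14313 genes, and 0 were called. With all samples 9 of the 10 were higher in Cthrc1-/- on day 7 (median log2 difference 0.45). Of the 7 tested class II genes and Cd207 together, 6 were lower there (median -0.16). Of the 39 tested genes on these 5 lists, edgeR called 5 between days in WT, a share near the 13.1% of all genes. Between days in Cthrc1-/- it called 0, where 1.46% of all genes were called. There 6 of the 39 had an unadjusted p under 0.05, against 2596 of all 14313 genes. DESeq2 called 3 of the 39 there, against 1409 of all genes. Between genotypes on day 0 edgeR called 0 of the 39, where 5.78% of all genes were called. There 5 had an unadjusted p under 0.05, against 4068 of all 14313 genes, and DESeq2 called 2 (Ctsd and Rfxap), against 2787. On day 7 edgeR called 0 of the 39, where 0.021% of all genes were called. There 2 had an unadjusted p under 0.05, against 782 of all genes, and DESeq2 called 0, against 62. For a genotype effect on the change between days, edgeR called 0 of the 39, where 0.014% of all genes were called. There 6 had an unadjusted p under 0.05, against 2164 of all 14313 genes, and DESeq2 called 1 (Ctsd), against 681.

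**Figure D5:**
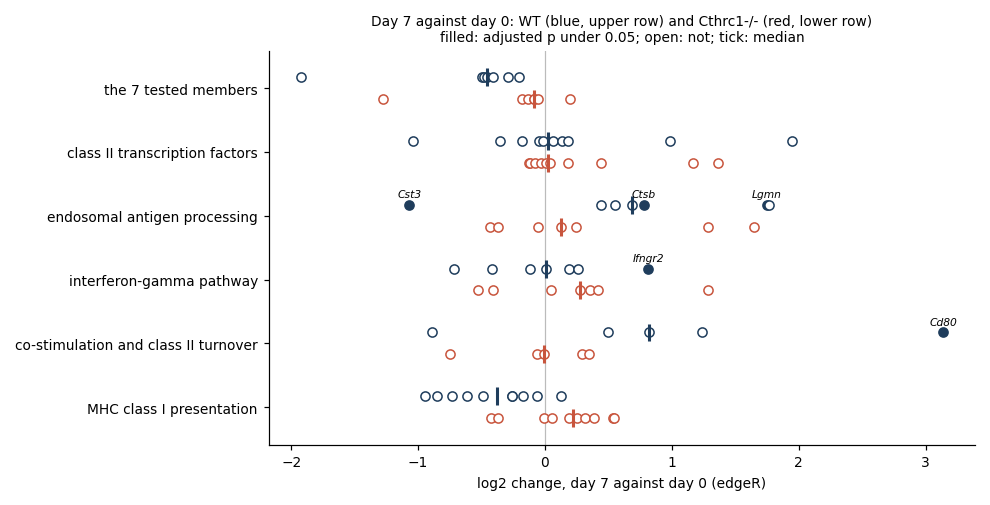
Log2 difference between day 7 and day 0 (x axis) for each tested gene of the class II set and of 5 pathway lists (rows), WT in blue above and Cthrc1-/- in red below, with filled points for an edgeR adjusted p under 0.05 and a tick at the median. The 5 filled points are Cst3, Ctsb, Lgmn, Ifngr2 and Cd80 in WT. The class II row includes Cd207, which is its leftmost point.

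The genes whose pattern was most like that of the class II chains were ranked by Pearson's correlation across the 12 samples of log2(FPKM + 1) with the mean z-score of H2-Aa, H2-Ab1, H2-Eb1 and Cd74, as a description among 14313 genes. The first 8 were 9530068E07Rik (0.98), Thy1 (0.97), Smarcd3 (0.94), Cers5 (0.94), Trdc (0.94), Cd7 (0.94), Eid1 (0.94) and Slc25a36 (0.94). Thy1 is a surface glycoprotein of T cells and fibroblasts, Trdc the constant region of the T cell receptor delta chain and Cd7 a surface protein of T cells. The order rests in large part on Cthrc1-/- day 0 replicate 3, in which Thy1 was at 19.6 FPKM against 46.7 to 83.0 FPKM elsewhere and Trdc at 0.689 FPKM against 1.89 to 3.95 FPKM. Without that library 3 of the 8 were still among the first 8, and without WT day 7 replicate 1, 4 were. The 6 T cell markers summed to 6.73 to 6.95 FPKM in WT day 0 and 4.48 to 10.01 FPKM in WT day 7. In Cthrc1-/- they summed to 2.41 to 10.4 FPKM on day 0, lowest in replicate 3, and 7.30 to 11.2 FPKM on day 7. With all samples edgeR called 0 of the 4 tested in any of the 5 contrasts. On day 7 all 4 were higher in Cthrc1-/- (median log2 difference 0.09). DESeq2 called Cd4 higher on day 7 in both genotypes. The part of T cells in the class II values was not tested.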

How the data were processed

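Poly(A) RNA of 12 dermis samples was sequenced as strand-marked, paired-end libraries with molecular identifiers, per the labels' protocols. The submitters' processing notes name cutadapt 1.9, HISAT2 2.0.4, UMI-tools, StringTie 1.3.4d, DESeq2, edgeR and GRCm38, with no order or role. The authors deposited 1 table with counts and FPKM per gene for 55401 genes, of which 55141 carried a symbol. How counts were made is not given in the sources used here, and in the deposited counts the values 4 and 8 were 2.60 to 4.05 times as frequent as their neighbours, so counts divided by 4 were tried as an alternative.

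Groups came from the genotype and day labels. Of the deposited counts, 14313 genes whose FPKM averaged 1 or more over all samples were tested with edgeR 4.0.16 in R 4.3.3, by its quasi-likelihood test with TMM scaling over all 12 samples. Benjamini-Hochberg adjustment ran over all genes tested, and called means an adjusted p under 0.05. Nothing in the labels says whether replicates of a group shared an animal beyond being biological replicates. Ciita, under the minimum, was read from a fit of genes with a mean count of at least 10. An exact test of 3 samples against 3 cannot go below 0.10. The exact permutation test therefore exchanged days within both genotypes, and it was applied only to the ratios. Alternatives were DESeq2 1.42.0, limma 3.58.1 on log2(FPKM + 1) and log2(FPKM + 0.1), other scalings, only the groups compared, a replicate block and each library left out. Leaving out both libraries that stood apart and the ratios were added after the data had been seen. The code was tested on simulated data. Replicate numbers were not treated as pairs. The genes, the lists and the rule for named genes (all 8, listed genes that were called, and the 8 genes most like them) were chosen with earlier results of these data known. Promoter sequences came from RefSeq.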

Additional observations from a re-analysis of the deposited data

How the results depend on the processing

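The 35 comparisons of the 7 tested genes were refitted under 595 alternatives, of which 3 gave a call and 53 turned a direction, in 18 comparisons, each from a value not past the threshold. The number of genes called was 1 in place of 0 in WT between days with only the groups compared (H2-Eb1) and without both libraries that stood apart (Cd207), and 1 in Cthrc1-/- between days without both (Cd207). Beyond these, no alternative changed a call.

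Directions depended on scaling in Cthrc1-/- between days. Scaling by total counts moved the median log2 difference of all genes from -0.0019 to 0.20 in WT and from -0.01 to 0.16 in Cthrc1-/-. It moved the share of called genes that were higher from 46.0% to 75.5% and from 58.9% to 86.9%. In Cthrc1-/- between days, limma at a pseudocount of 1, limma at 0.1 and total-count scaling gave log2 differences of 0.32, 0.32 and 0.074 for Cd74, 0.31, 0.32 and 0.12 for H2-Ab1, 0.20, 0.24 and 0.15 for H2-DMa, 0.091, 0.10 and 0.014 for H2-DMb1 and 0.39, 0.40 and 0.12 for H2-Eb1. With only the groups compared H2-DMa was at 0.0037, and without both libraries H2-Aa was at -0.23. Between genotypes on day 7 the same 3 settings gave 0.029, 0.031 and 0.033 for H2-DMb1. Without both libraries the log2 difference was 0.19 for H2-DMb1 and -0.21 for Cd207 on day 7, and 0.059 and 0.17 on day 0. The difference between genotypes in the change between days was then -0.040 for H2-Aa, -0.044 for H2-Eb1 and -0.38 for Cd207. The cause was not tested.

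With each library left out in turn, log2 differences in Cthrc1-/- between days ran from -0.56 to 0.49 for Cd74, -0.22 to 0.79 for H2-Aa, -0.48 to 0.52 for H2-Ab1, -0.41 to 0.37 for H2-DMa, -0.50 to 0.29 for H2-DMb1 and -0.52 to 0.65 for H2-Eb1. Those in the difference of changes ran from -0.079 to 0.97 for Cd74, -0.019 to 0.999 for H2-Aa, -0.024 to 0.98 for H2-Ab1, -0.11 to 0.67 for H2-DMa, -0.091 to 0.71 for H2-DMb1 and -0.023 to 1.15 for H2-Eb1. Between genotypes they ran from -1.34 to 0.14 for Cd207 and -0.77 to 0.025 for H2-DMb1 on day 0, and from -0.21 to 0.67 for Cd207, -0.29 to 0.020 for H2-Aa and -0.20 to 0.19 for H2-DMb1 on day 7. No gene was called in any of these fits. The log2 ratio of Cd207 to H2-Aa between days ran from -1.88 to -1.14.

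Replicate numbers were not taken to pair the samples. Deviations of same-numbered samples correlated at -0.232 to 0.426 over 18 pairs, with 5 above 0.1. Of these, 3 were the 3 pairs of Cthrc1-/- day 0 with WT day 7 (0.124 to 0.222), groups that were not compared with each other, and in no comparison made were all 3 pairs above 0.1. The replicate block changed no call of the 7 genes, and Cd207 in WT between days was then at -1.95 with an edgeR adjusted p of 0.190. In Cthrc1-/- between days the block gave 0.025 for Cd74, 0.029 for H2-Ab1, 0.0090 for H2-DMa and 0.070 for H2-Eb1, and over all genes it gave 291 calls against 209 there and 1467 against 1880 in WT. DESeq2 called 2787 genes between genotypes on day 0 against 827 with edgeR, 62 against 3 on day 7, 3551 against 1880 between days in WT, 1409 against 209 in Cthrc1-/- and 681 against 2 for the difference of changes. With 3 samples a group and the spread of Cthrc1-/- day 0, the intervals of the class II genes limit what could be detected in the fit of all 12 samples. Ciita, at 5 to 476 counts, was limited by depth as well.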
